A study of Homo sapiens with 6 samples.

Results

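The genes described here encode the proteins of the mitochondrial ribosome. They were chosen by name: every gene of the expression table whose symbol starts with MRPL or MRPS and a digit, without pseudogenes, and DAP3. This gave 79 of 20289 genes, 49 MRPL genes of the large subunit and 30 genes (the MRPS genes and DAP3) counted as the small subunit. RNA was sequenced from the established line RKO, human colorectal cancer cells, in 2 groups. One group carried a control hairpin RNA (shControl) and the other a hairpin against TRMT6 (shTRMT6), with 3 libraries each. TRMT6 is the non-catalytic subunit of a tRNA adenosine methyltransferase, and its knockdown is the only difference between the groups that the labels give. Whether the hairpin cells are 1 clone, and for how long the hairpin was expressed, is not given in the sources used here. Nor do the labels say that the 3 libraries of a group come from separate cultures, so every p-value rests on a spread between libraries that may be technical.

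The mitochondrial ribosome, or mitoribosome, translates only the mRNAs of mitochondrial DNA, all of which code for subunits of the respiratory chain and ATP synthase. Its RNAs come from mitochondrial DNA, but its proteins are encoded in the nucleus, made in the cytosol and imported. Part of them have a counterpart in the bacterial ribosome, and the rest were added in the mitochondrial lineage. Many promoters of nuclear genes for mitochondrial proteins hold binding motifs of NRF1, of ETS-family factors such as GABPA, and of YY1.

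The members lie on many chromosomes. MRPS11 and MRPL46 share a start region, described below. Promoter sequences of members that moved are shown first, to let them be compared. The promoter table (RefSeq, GRCh38.p14) held 70 of the 79 members. The letters searched on both strands of the 250 bases before each start were CGCANGCGC (NRF1), CCGGAAG (ETS) and AAGATGGC (YY1). The first 3 sequences below are whole windows of members that rose, taken from those that hold no annotated exon. MRPL19 (chr2:75646533-75646782, plus strand) has no match to these letters. MRPL58 (chr17:75012420-75012669, plus strand) has ETS matches that begin 193 and 8 bases before the start. MRPS31 (chr13:40771191-40771440, minus strand) has an ETS match 32 bases before it. The window of MRPL50, which also rose, likewise holds no annotated exon and has no match, and is not printed. Capitals mark the matches.
MRPL19: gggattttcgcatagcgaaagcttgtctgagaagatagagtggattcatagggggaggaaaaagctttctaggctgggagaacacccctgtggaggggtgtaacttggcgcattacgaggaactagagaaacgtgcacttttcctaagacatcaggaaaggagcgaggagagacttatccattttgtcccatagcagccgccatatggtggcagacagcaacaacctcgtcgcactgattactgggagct
MRPL58: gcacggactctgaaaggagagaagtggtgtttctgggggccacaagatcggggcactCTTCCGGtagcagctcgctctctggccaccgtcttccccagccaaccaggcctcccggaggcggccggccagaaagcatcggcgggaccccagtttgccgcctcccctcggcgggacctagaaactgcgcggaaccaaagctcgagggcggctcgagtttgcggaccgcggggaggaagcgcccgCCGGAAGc
MRPS31: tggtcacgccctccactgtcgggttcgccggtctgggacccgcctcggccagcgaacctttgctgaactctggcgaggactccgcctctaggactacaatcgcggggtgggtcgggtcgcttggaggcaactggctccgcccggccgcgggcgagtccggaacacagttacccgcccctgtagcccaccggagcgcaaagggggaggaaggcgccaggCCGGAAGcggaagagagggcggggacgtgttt

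Further matches are shown with the bases beside them, to let the letters of each motif be compared between members. MRPS33, MRPS18C and MRPL22 hold the NRF1 letters 154, 136 and 24 bases before the start, MRPL32 and MRPS12 the YY1 letters 222 and 212 bases before it, and MRPL3 the ETS letters 32 bases before it. MRPS34, a member that fell, holds ETS letters 71, 29 and 19 bases before its start, of which the first is shown. Unlike the first windows, these hold annotated exon bases. All 250 bases are exonic for MRPL32 and MRPS12, 199 for MRPS34, 175 for MRPS18C, 139 for MRPS33, 12 for MRPL3 and 3 for MRPL22. The starts are those of RefSeq. By the GENCODE starts of MRPS12 (38930548) and MRPS33 (141015228, minus strand), the letters shown lie inside these genes.
MRPS33, NRF1: agccttactgCGCAGGCGCcaggtacacc
MRPS18C, NRF1: gaaaggtgctGCGCATGCGtattgaaaaa
MRPL22, NRF1: ccagagtattGCGCATGCGtgctgtccag
MRPL32, YY1: cccgcgctccGCCATCTTtacccgaaga
MRPS12, YY1: catggacgcaGCCATCTTggaccgggaa
MRPL3, ETS: gtaaaacgcaCCGGAAGtgggtccggc
MRPS34, ETS: ctcttcctcgCTTCCGGccgcgaccga

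The ETS letters were in 23 of the 70 member promoters (32.9%), against 17.9% of the 8670 promoters of all tested genes. The YY1 letters were in 5 member promoters (7.1%), against 1.9%, and the NRF1 letters in 10 (14.3%), against 14.7%. By subunit, the ETS letters were in 33.3% of 42 large and 32.1% of 28 small subunit promoters. Of the 25 promoters of members that rose in shTRMT6, 16 (64.0%) held at least 1 of the motifs. Of the 43 promoters of members that did not pass the test, 39.5% did. Over all 70 member promoters this share was 48.6%, and over those of all tested genes 31.1%. It was not computed for all tested genes that rose. These shares are descriptions without a test, and a match is not a binding site. Many of the member windows also hold annotated exon bases. Both lower members found in the table, MRPS11 and MRPS34, are too few for a share.

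The table gives FPKM, that is fragments relative to the length of the gene and to the size of the library. Depth is not in the file. A rough estimate from the steps between low values was 18 to 28.2 M (mega) fragments a library. It was 21.3, 27.6 and 28.2 M in shControl and 20.1, 18 and 19.5 M in shTRMT6. Every shTRMT6 library was thus below every shControl library, so estimated depth cannot be told apart from the knockdown. All genes that averaged 1 FPKM or more were tested (10592 genes, all 79 members among them) with limma on log2(FPKM + 1), with Benjamini-Hochberg adjustment over all tested genes and a threshold of 0.05. TRMT6 itself read 14.43, 17.96 and 16.85 FPKM in shControl against 1.58, 1.73 and 1.09 FPKM in shTRMT6 (log2 fold change -2.82, SE 0.13, limma adjusted p = 4.33e-08). Of the colon epithelial markers, CDH1, KRT19 and VIL1 were listed at 0 in every library, while the summed level of the 7 markers was 124 to 156 FPKM in shControl against 201 to 214 FPKM in shTRMT6. Nearly all of that sum was KRT18, which rose (105 to 136 against 179.1 to 193.3 FPKM, limma adjusted p = 0.00053); EPCAM rose too (adjusted p = 0.0282), and CDX2 and KRT8 had log2 fold changes of -0.05 and 0.07 (adjusted p = 0.811 and 0.687). Endothelial and fibroblast markers summed to at most 0.17 and 1.36 FPKM, and of the leukocyte markers only CD68, a lysosomal protein, was above 0.04 FPKM. The part of these marker differences in the results was not tested. Over all tested genes, Pearson r between GC content and log2 fold change was -0.389, and -0.235 without shControl replicate 1. It was not computed without each of the other libraries. The counts and medians of the members are given with and without shControl replicate 1 below. In bulk RNA, fewer cells of a kind and less RNA per cell cannot be told apart.

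More members were higher than lower in shTRMT6, in both subunits and by small amounts. Of the 49 large subunit genes, 18 rose (36.7%), MRPL23 alone fell and 30 did not pass the test. Of the 30 small subunit genes, 11 rose (36.7%), 3 fell and 16 did not pass. Over all tested genes, 19.3% were called higher and 16.1% lower. The median log2 fold change was 0.16 over the large subunit (1.11-fold), 0.088 over the small subunit (1.06-fold) and 0.024 over all tested genes. No member changed as much as 2-fold: those that rose did so by 1.22-fold to 1.90-fold in mean FPKM, and those that fell were lower by 1.25-fold to 1.39-fold. All 3 shTRMT6 libraries lay above all 3 shControl libraries for 22 large and 13 small subunit genes, and below them for 2 and 4; over all tested genes, 26.2% lay above and 22.1% below. The counts fell when either of 2 libraries was left out, for members as for all tested genes. Without shTRMT6 replicate 1, 11 large and 6 small subunit genes rose (17 of the 29 in common with the full data). Without shTRMT6 replicate 2, 9 and 7 did (16 in common). Over all tested genes 2465 and 2407 then passed, against 3746. The medians changed little, to 0.154 (large) and 0.085 (small) without shTRMT6 replicate 1 and 0.166 and 0.095 without shTRMT6 replicate 2. Without shControl replicate 1, 21 and 11 rose, with 28 of the 29 in common. The medians moved more without shControl replicate 1 or 3 and with another scaling. They were 0.24 (large) and 0.16 (small) without shControl replicate 1, and 0.12 and 0.0497 without shControl replicate 3. With median-of-ratios scaling they were 0.12 and 0.0498, where the median over all tested genes was -0.010.

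**Figure D1:**
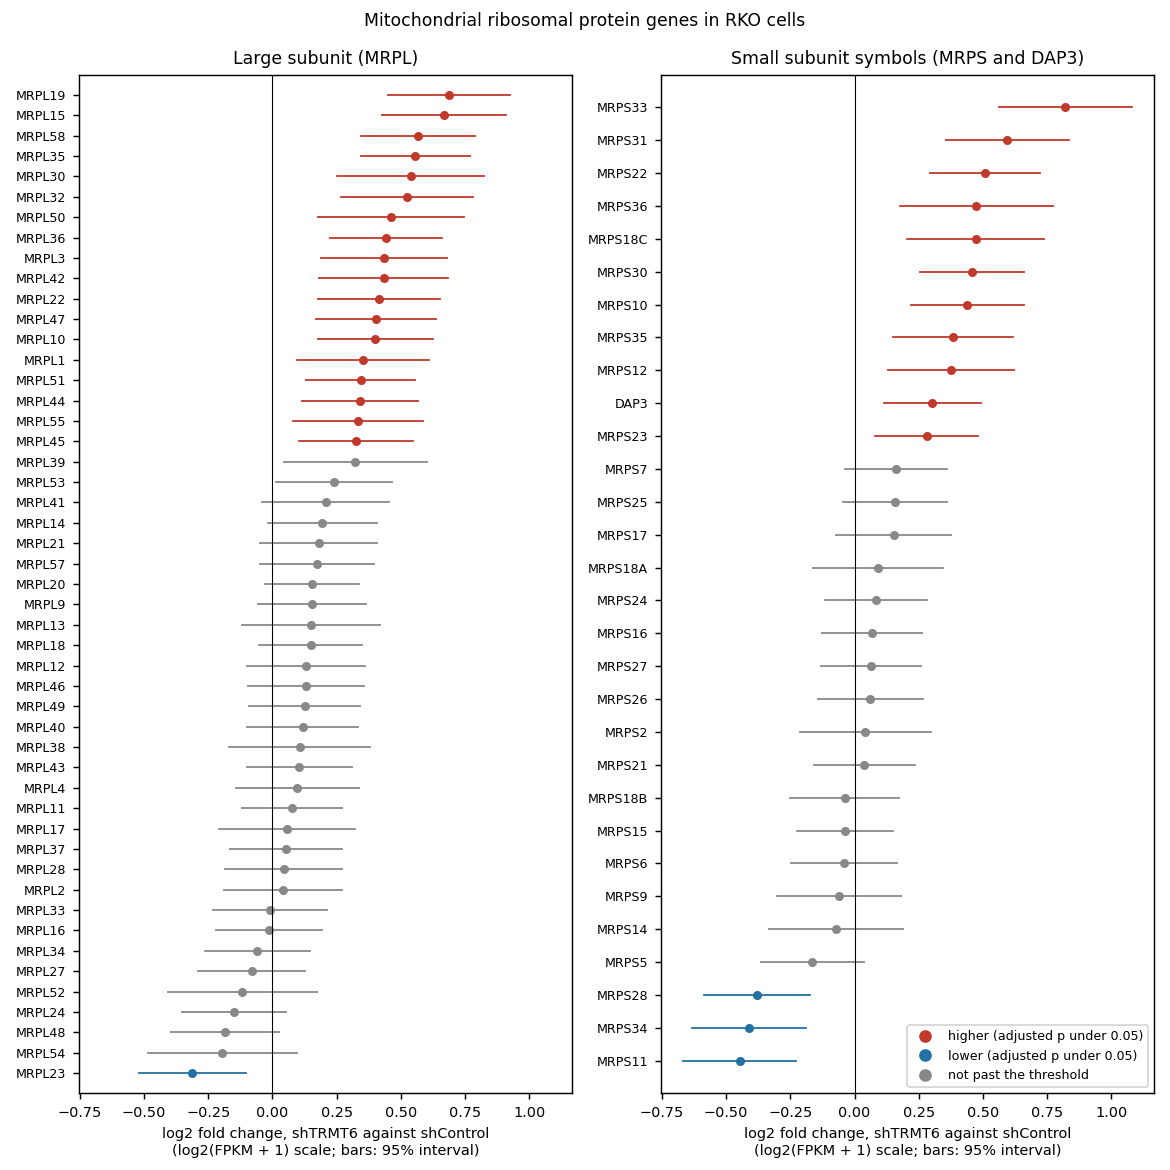
Log2 fold change (x axis, log2(FPKM + 1) scale) of each of the 79 members with its 95% interval, large subunit on the left and small subunit symbols on the right, sorted by value. Red marks the 29 members that rose, blue the 4 that fell and grey the 46 that did not pass the test; the red points reach up to 0.82 (MRPS33) and the blue ones down to -0.45 (MRPS11).

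The large subunit genes with the largest rises were MRPL19 and MRPL15, both with a bacterial counterpart. MRPL19 (ENSG00000115364; chromosome 2, bases 75646783 to 75690851, plus strand, GRCh38), whose promoter is printed above, read 28.86, 34.59 and 28.44 FPKM in shControl against 49.17, 55.32 and 45.25 FPKM in shTRMT6. The lowest shTRMT6 library was well above the highest shControl library. Its mean rose from 30.6 ± 3.44 to 49.9 ± 5.08 FPKM (SD, n = 3; 1.63-fold, log2 fold change 0.69, SE 0.11, limma adjusted p = 0.000625). MRPL15 (ENSG00000137547; chromosome 8, bases 54135210 to 54147901, plus strand), one of the more abundant members, read 74.86, 78.86 and 64.67 FPKM in shControl against 119.13, 129.4 and 100.89 FPKM in shTRMT6. It rose 1.6-fold (log2 fold change 0.67, SE 0.11, limma adjusted p = 0.000803), and its groups did not overlap. MRPL35 (ENSG00000132313; chromosome 2, bases 86199355 to 86213794, plus strand) was even within shControl at 28.54, 30.08 and 29.61 FPKM, and read 44.65, 47.07 and 39.63 FPKM in shTRMT6. All of its shTRMT6 libraries were higher, by 1.49-fold in the mean (log2 fold change 0.56, SE 0.10, limma adjusted p = 0.0011).

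MRPL58 (ENSG00000167862; chromosome 17, bases 75012670 to 75021261, plus strand) encodes a protein of the release factor family, also known as ICT1, that was taken into the large subunit and can hydrolyse peptidyl-tRNA on stalled ribosomes. It read 23.92, 23.55 and 21.67 FPKM in shControl against 34.46, 38.04 and 31.54 FPKM in shTRMT6, without overlap. The rise was 1.5-fold (log2 fold change 0.57, SE 0.10, limma adjusted p = 0.00128). MRPL30 (ENSG00000185414; chromosome 2, bases 99181079 to 99197626, plus strand) varied more within groups, at 26.87, 35.38 and 38.27 FPKM in shControl against 52.9, 51.4 and 42.14 FPKM in shTRMT6. Its lowest shTRMT6 library was close above its highest shControl library, and its mean rose 1.46-fold (log2 fold change 0.54, SE 0.13, limma adjusted p = 0.00752). ENSG00000241962 and ENSG00000273155 on the same strand cover 19.5% and 13.1% of the exonic bases of MRPL30. How fragments were divided between these genes is not known. MRPL32 (ENSG00000106591; chromosome 7, bases 42932200 to 42948958, plus strand), whose precursor is cut by a protease of the inner mitochondrial membrane before it joins the ribosome, read 29.4, 39.17 and 38.1 FPKM in shControl against 50.2, 56.09 and 47.41 FPKM in shTRMT6. It rose 1.44-fold with no overlap (log2 fold change 0.52, SE 0.12, limma adjusted p = 0.00483).

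The other 12 large subunit genes that rose had log2 fold changes from 0.33 to 0.46. In falling order they were MRPL50, MRPL36, MRPL3, MRPL42, MRPL22, MRPL47, MRPL10, MRPL1, MRPL51, MRPL44, MRPL55 and MRPL45. MRPL10 carries the stalk at which elongation factors act; it rose from 53.2 ± 6.29 to 70.4 ± 4.44 FPKM (SD, n = 3), while MRPL12, the stalk protein bound to it, was at 121.5 ± 17.6 and 132.3 ± 5.31 FPKM with overlapping groups (limma adjusted p = 0.362). Another gene on the same strand (ENSG00000262660) covers 68.2% of the exonic bases of MRPL12, so the level of MRPL12 is uncertain. MRPL45, which lies at the peptide exit and holds the ribosome to the inner membrane, rose from 42.0 ± 2.75 to 52.9 ± 5.19 FPKM; 11.8% of its 75-base windows also occur in other genes, mainly the pseudogene MRPL45P2, so its fragments may be divided uncertainly. Of these 18 genes, MRPL19, MRPL15, MRPL58, MRPL35, MRPL30, MRPL32 and MRPL36 passed the threshold in all 17 alternative settings. Among these 18, MRPL1 and MRPL55 lost their call in the most settings, 9 and 8 of the 17. Their limma adjusted p was 0.163 and 0.178 without shTRMT6 replicate 1, and each lost its call in 5 of the 6 fits without 1 library. With each library's GC trend removed, as described below, the adjusted p was 0.436 for MRPL1 and 0.333 for MRPL22.

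Leaving out 1 library also ended the following large subunit calls (limma adjusted p in parentheses). Without shTRMT6 replicate 2 these were MRPL3 (0.0505), MRPL47 (0.0572), MRPL42 (0.0699), MRPL50 (0.0856), MRPL51 (0.0876), MRPL44 (0.13) and MRPL45 (0.14). Without shTRMT6 replicate 1 they were MRPL10 (0.0605), MRPL22 (0.0611), MRPL45 (0.0671), MRPL44 (0.0686) and MRPL51 (0.0715). MRPL44 and MRPL45 also fell short without shControl replicate 3 (0.0666 and 0.0993), and MRPL22 without shControl replicate 2 (0.055). In the fit with a replicate block 3 more large subunit genes rose. They were MRPL39 (limma adjusted p = 0.00454 against 0.0661 without the block), MRPL53 (0.0184 against 0.0922) and MRPL41 (0.0315 against 0.176). Over all tested genes the block also raised the number past the threshold, from 3746 to 4954.

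MRPL23 (ENSG00000214026; chromosome 11, bases 1947278 to 1984522, plus strand), a protein at the rim of the exit tunnel, was the 1 large subunit gene that fell. Its values were 68.93, 61.87 and 57.57 FPKM in shControl against 50.91, 51.27 and 48.59 FPKM in shTRMT6, even in the latter group and all below shControl. The fall was 1.25-fold (log2 fold change -0.31, SE 0.10, limma adjusted p = 0.0239). Leaving out shControl replicate 2 ended the call (0.0559), as did leaving out shTRMT6 replicate 1, 2 or 3 (0.0738, 0.0606 and 0.0526).

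In the small subunit the gene with the largest rise was also one of the least abundant. MRPS33 (ENSG00000090263; chromosome 7, bases 141002610 to 141015228, minus strand), a mitochondria-specific protein, read 4.85, 5.7 and 6.41 FPKM in shControl against 11.51, 10.23 and 10.4 FPKM in shTRMT6. Its groups were far apart, with means of 5.65 ± 0.781 and 10.7 ± 0.695 FPKM (SD, n = 3; 1.90-fold, log2 fold change 0.82, SE 0.12, limma adjusted p = 0.000357). This was the largest fold change of the 79 members. MRPS31 (ENSG00000102738; chromosome 13, bases 40729135 to 40771173, minus strand), also mitochondria-specific, read 8.5, 9.63 and 8.34 FPKM in shControl against 12.74, 15.03 and 13.76 FPKM in shTRMT6. It rose 1.57-fold without overlap (log2 fold change 0.60, SE 0.11, limma adjusted p = 0.00153). MRPS22 (ENSG00000175110; chromosome 3, bases 139005806 to 139357223, plus strand), in which inherited mutations cause mitochondrial disease, read 30.7, 35.95 and 33.89 FPKM in shControl against 48.78, 50.36 and 44.83 FPKM in shTRMT6. It rose 1.43-fold, again without overlap (log2 fold change 0.51, SE 0.10, limma adjusted p = 0.00204).

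The products of some of these symbols act elsewhere than the name says. MRPS30 (ENSG00000112996; chromosome 5, bases 44808925 to 44820428, plus strand) and MRPS18A have small subunit names, but their products sit in the large subunit. MRPS30 read 26.47, 25.79 and 25.69 FPKM in shControl against 38.11, 35.79 and 34.37 FPKM in shTRMT6, a rise of 1.39-fold with little spread within either group (log2 fold change 0.46, SE 0.09, limma adjusted p = 0.00265). MRPS36 (ENSG00000134056; chromosome 5, bases 69217760 to 69230129, plus strand) is now known as a subunit of the oxoglutarate dehydrogenase complex and not of the ribosome. Its values were low, at 4.29, 6.55 and 5.4 FPKM in shControl against 8.62, 7.44 and 7.43 FPKM in shTRMT6. The groups did not overlap and the rise was 1.45-fold (log2 fold change 0.47, SE 0.14, limma adjusted p = 0.0178), but the call ended without shTRMT6 replicate 1 (0.0822). Counted by place in the ribosome instead of by name, 19 of 51 large subunit genes rose and 1 fell (median log2 fold change 0.16), and 9 of 27 small subunit genes rose and 3 fell (median 0.067).

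MRPS18C (ENSG00000163319; chromosome 4, bases 83455932 to 83469735, plus strand) is 1 of 3 paralogous genes. It read 11.94, 15.75 and 13.64 FPKM in shControl against 18.09, 22.14 and 18.14 FPKM in shTRMT6. It rose 1.41-fold with no overlap (log2 fold change 0.47, SE 0.12, limma adjusted p = 0.0103; 0.0562 without shTRMT6 replicate 2). The paralogues MRPS18A and MRPS18B were more abundant, at 63.0 ± 11.1 and 70.1 ± 6.30 FPKM in shControl against 66.6 ± 3.32 and 68.1 ± 3.88 FPKM in shTRMT6 (SD, n = 3). Their log2 fold changes were 0.09 (95% interval -0.16 to 0.34) and -0.04 (-0.25 to 0.17), with overlapping groups in both. The differences between the paralogues were not tested. Annotated exons of ABRAXAS1 on the other strand cover 40.2% of the exonic bases of MRPS18C and those of RSPH9 47.0% of MRPS18A; the strand setting of the counting is not given in the sources used here, so reads of these pairs cannot be told apart.

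The other 5 small subunit genes that rose had log2 fold changes from 0.28 to 0.44. They were MRPS10, MRPS35, MRPS12, DAP3 and MRPS23. MRPS12, a protein of the decoding centre, rose from 65.6 ± 10.9 to 84.6 ± 1.59 FPKM (SD, n = 3) with values of 76.83, 64.87 and 54.99 FPKM in shControl against 86.16, 82.99 and 84.63 FPKM in shTRMT6. DAP3, a GTP-binding protein of the head of the small subunit first described as a mediator of apoptosis, rose from 75.9 ± 0.634 to 93.9 ± 3.70 FPKM (1.24-fold, limma adjusted p = 0.0165). Of the 11 small subunit genes that rose, MRPS33, MRPS31, MRPS22 and MRPS30 passed in all 17 alternatives. Leaving out 1 library ended the calls of MRPS23 (adjusted p up to 0.162, without shTRMT6 replicate 2; also without shTRMT6 replicate 1 and shControl replicates 2 and 3), MRPS12 (up to 0.103, without shControl replicate 3; also without shTRMT6 replicate 1), DAP3 (up to 0.088, without shTRMT6 replicate 2; also without shTRMT6 replicate 1 and shControl replicate 3) and MRPS35 (up to 0.0779, without shTRMT6 replicate 2; also without shTRMT6 replicate 1).

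All 3 small subunit genes that fell kept their call in every alternative. MRPS11 (ENSG00000181991; chromosome 15, bases 88467453 to 88480773, plus strand), a protein of the platform with a bacterial counterpart, read 27.65, 24.32 and 23.81 FPKM in shControl against 17.83, 19.1 and 17.76 FPKM in shTRMT6. It was 1.39-fold lower with a clear gap between the groups (log2 fold change -0.45, SE 0.10, limma adjusted p = 0.00479). MRPS34 (ENSG00000074071; chromosome 16, bases 1771890 to 1773155, minus strand), a mitochondria-specific protein and one of the most abundant members, read 158.11, 133.2 and 126.54 FPKM in shControl against 112.01, 101.53 and 98.99 FPKM in shTRMT6. It fell 1.34-fold, and its highest shTRMT6 library was below its lowest shControl library (log2 fold change -0.41, SE 0.10, limma adjusted p = 0.00829). MRPS28 (ENSG00000147586; chromosome 8, bases 79918717 to 80030289, minus strand) was even in shControl at 32.79, 33.71 and 34.14 FPKM and read 25.81, 27.05 and 23.83 FPKM in shTRMT6. It fell 1.31-fold (log2 fold change -0.38, SE 0.10, limma adjusted p = 0.0083); another gene on the same strand (ENSG00000276418) shares 35.8% of its exonic bases, so how fragments were divided between them is not known.

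**Figure D2:**
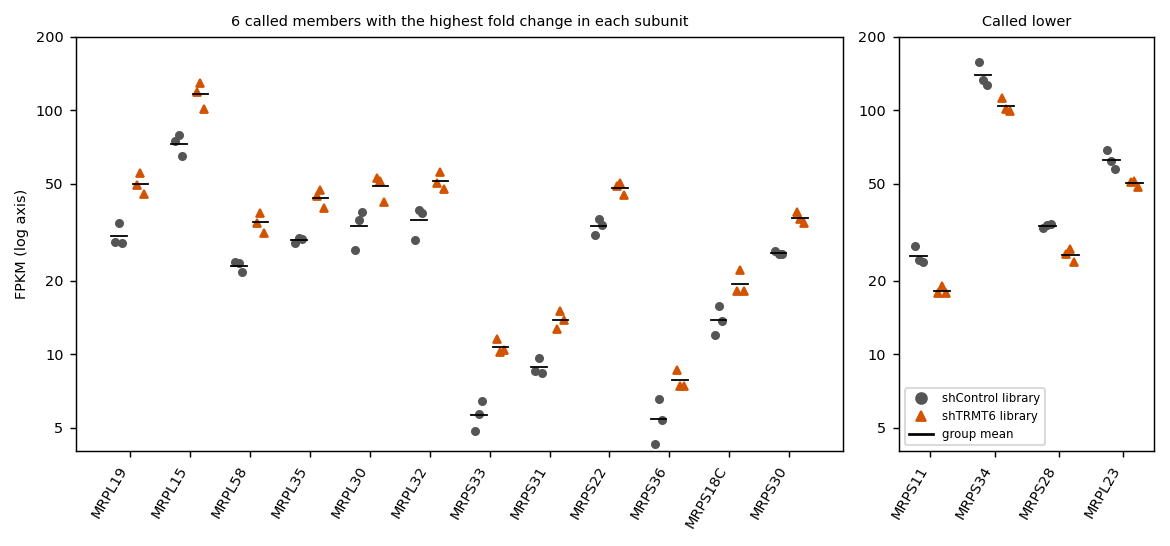
FPKM (log axis) in each library for the 6 members with the largest rise in each subunit (left) and the 4 members that fell (right), with circles for shControl, triangles for shTRMT6 and bars for group means. For all 16 genes the circles and triangles do not overlap, and the gap is widest for MRPS33, from 6.41 to 10.23 FPKM.

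Members that did not pass the test include most of the abundant ones. In shControl the levels per length ran from 5.34 FPKM (MRPL1) to 305.3 FPKM (MRPS2), a range of 57.1-fold, with medians of 44.9 FPKM in the large and 36.2 FPKM in the small subunit, against 12.8 FPKM over all tested genes. MRPS2, with a bacterial counterpart at the neck of the small subunit, read 371.37, 279.28 and 265.24 FPKM in shControl against 327.49, 304.48 and 300.58 FPKM in shTRMT6. Its groups overlapped, and the interval of its log2 fold change ran from -0.21 to 0.30. In the large subunit MRPL41, MRPL28 and MRPL37 had the highest levels, with shControl means of 242.3, 192.1 and 189.8 FPKM and shTRMT6 means of 277.8, 197.2 and 195.8 FPKM. In the small subunit MRPS24 followed MRPS2, at 130.2 and 137.9 FPKM, ahead of MRPS34. At the low end of the large subunit, MRPL1 and MRPL50 were among the members that rose, while MRPL48 averaged 19.7 ± 0.777 and 17.3 ± 0.582 FPKM (SD, n = 3) without passing the test (adjusted p = 0.16).

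As deposited, the rises lay mostly in members of lower level, which were also lower in GC content. Of the 40 members at or below the median member level over all 6 libraries (47.4 FPKM) 21 rose (52.5%), and of the 39 above it 8 rose (20.5%), with 2 that fell in each. Over all tested genes the shares that rose on either side of this level were close to each other, 19.5% below and 18.1% above. The median log2 fold changes of the members were 0.33 and 0.11, and the median GC content of their transcripts was 45% and 53.1%. With the GC correction described below the order turned: 12 of the 40 and 19 of the 39 rose, with medians of 0.17 and 0.21. Without shControl replicate 1, 20 and 12 rose, and without shControl replicate 3, 18 and 4 did. Without shTRMT6 replicate 2, 13 and 3 did. The shares of all tested genes by level are given for the full data only. In all, 4146 genes passed with the GC correction, against 3746 as deposited. Without shControl replicate 1, shControl replicate 3 or shTRMT6 replicate 2, 3618, 2959 and 2407 did. These member counts thus have no share over all tested genes beside them. For 22 of the 46 members that did not pass, the log2 fold change lay within 0.1 of zero. The widest interval among these 46 reached 0.60 (MRPL39), so for some of them the interval holds rises as large as those called.

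Averaged over its genes, each subunit was higher in every shTRMT6 library than in any shControl library. Relative to the shControl mean, the mean log2(FPKM + 1) of the large subunit was 0.0539, 0.0316 and -0.0855 in shControl and 0.2329, 0.2613 and 0.1238 in shTRMT6, a difference of 0.21. For the small subunit these values were 0.0243, 0.0196 and -0.0439 in shControl and 0.1659, 0.186 and 0.0853 in shTRMT6, a difference of 0.15. Replicate 3 was the lowest of each group for both subunits. Over all tested genes the groups overlapped and differed by 0.029.

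The large subunit exceeded the small one slightly more in shTRMT6 than in shControl. The difference between the subunit means was 0.355, 0.338 and 0.284 in the shControl libraries (0.33 ± 0.037, SD, n = 3) and 0.393, 0.401 and 0.364 in the shTRMT6 libraries (0.39 ± 0.019). The groups did not overlap, but the nearest libraries were close, at 0.355 and 0.364. The shift of 0.06 stands beside a pooled SD of 0.0296 between libraries, and without shControl replicate 3 it was 0.039. Summed FPKM gave the same order: the large subunit summed to 2953 ± 221.9 FPKM and 3337 ± 149.6 FPKM, and the small one to 1644 ± 123.6 FPKM and 1731 ± 52.3 FPKM, with overlapping groups in both. The ratio of the sums was 1.78, 1.83 and 1.77 in shControl and 1.93, 1.96 and 1.89 in shTRMT6. No test was made of these scores, since the members were chosen as a list.

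**Figure D3:**
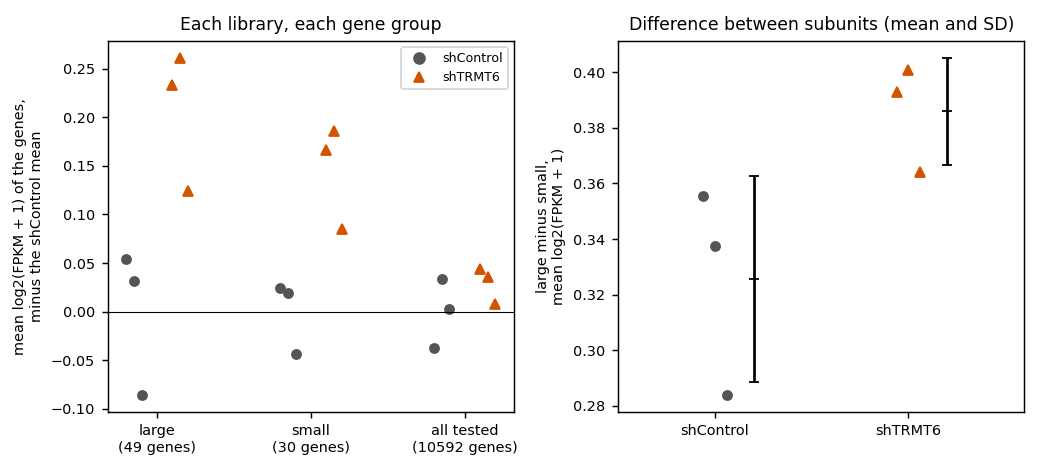
Left, mean log2(FPKM + 1) of the large subunit, small subunit and all tested genes in each library, minus the shControl mean of the same gene group; right, the large minus the small subunit mean in each library, with the group mean and SD. The shTRMT6 triangles lie above the shControl circles for both subunits, whereas for all tested genes the groups overlap.

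Within the subunits, the members with and without a bacterial counterpart were counted apart. Over all tested genes 19.3% rose and 16.1% fell. The small subunit genes with a counterpart were near these shares, at 18.8% and 12.5%. For the large subunit genes with a counterpart the shares were 40.0% and 3.3%. They were 31.6% and 0% for the mitochondria-specific large subunit genes, and 54.5% and 9.1% for the mitochondria-specific small subunit genes. In the large subunit 12 of 30 genes with a counterpart rose and 1 fell (median log2 fold change 0.15), and 6 of 19 mitochondria-specific genes rose and none fell (median 0.17; 3 rose without shTRMT6 replicate 1 and 1 without shTRMT6 replicate 2). In the small subunit 3 of 16 genes with a counterpart rose (MRPS10, MRPS12 and MRPS18C) and 2 fell (MRPS11 and MRPS28), with a median of 0.04 that moved with the setting: it was -0.001 without shControl replicate 3, 0.024 without shTRMT6 replicate 1, 0.0017 with median-of-ratios scaling and 0.015 with quantile normalization. Of the 11 mitochondria-specific small subunit genes 6 rose (MRPS33, MRPS31, MRPS22, MRPS35, DAP3 and MRPS23) and MRPS34 fell, with a median of 0.28. After the GC correction the medians of these small subunit classes were 0.032 and 0.16. Without shControl replicate 1 they were 0.056 and 0.26, and those of the large subunit classes 0.23 (13 rose) and 0.27 (8 rose). Differences between the classes were not tested, and without shTRMT6 replicate 1 or 2 the count of mitochondria-specific small subunit genes that rose was 3.

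Member fold changes followed the GC content of the transcript. The GC content of the longest coding transcript ran from 35% to 71.9% over the members. Of the 23 members under 45% GC, 17 rose and 1 fell (median log2 fold change 0.41); of all tested genes in this range, 33.2% rose and the median was 0.22. Of the 24 members from 45% to 52%, 9 rose and 1 fell (median 0.15), against 17.7% and a median of 0.019 over all tested genes. Of the 32 members at or above 52%, 3 rose and 2 fell (median 0.094), against 7.9% that rose, 27.8% that fell and a median of -0.13 over all tested genes. In each range the members' median was thus the higher one. Without shControl replicate 1, 16, 9 and 7 members of the 3 ranges rose (medians 0.34, 0.17 and 0.15), against 25.2%, 17% and 11.8% of all tested genes (medians 0.14, 0.0021 and -0.083). The median of the members at or above 52% was the least stable of these, at 0.011 without shControl replicate 3 (1 rose), 0.057 without shControl replicate 2 and 0.061 without shTRMT6 replicate 1 (1 rose). Without shTRMT6 replicate 1 and replicate 2, 11 and 8 members under 45% rose. Across the 79 members, which are not independent replicates, Pearson r between GC content and log2 fold change was -0.42 (Spearman rho -0.45), and over all tested genes r was -0.39. Without shControl replicate 1 these were -0.25 for the members and -0.23 for all tested genes.

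Removing each library's smooth trend on GC content left about as many calls but moved them between members. With it, 21 large subunit genes rose and 1 fell, and 10 small subunit genes rose and 4 fell; 19 of the 29 members that rose and 3 of the 4 that fell were among them. The calls that ended were those of MRPL50, MRPL42, MRPL22, MRPL47, MRPL1, MRPL44, MRPS36, MRPS10, MRPS35 and MRPS23 among the higher ones and of MRPL23 among the lower ones. The calls gained were those of other members: MRPL41, MRPL4, MRPL12, MRPL20, MRPL21, MRPL14, MRPL9, MRPL43, MRPL53, MRPS24, MRPS26 and MRPS7 rose, and MRPL48 and MRPS14 fell. MRPL41 moved from a log2 fold change of 0.21 (limma adjusted p = 0.176) to 0.35 (0.00301), and MRPS33, with a GC content of 41.7%, from 0.82 to 0.61. The medians became 0.21 for the large and 0.15 for the small subunit. Over all tested genes 4146 passed with the GC trend removed, against 3746 as deposited. The part of GC content in the results was not tested further.

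**Figure D4:**
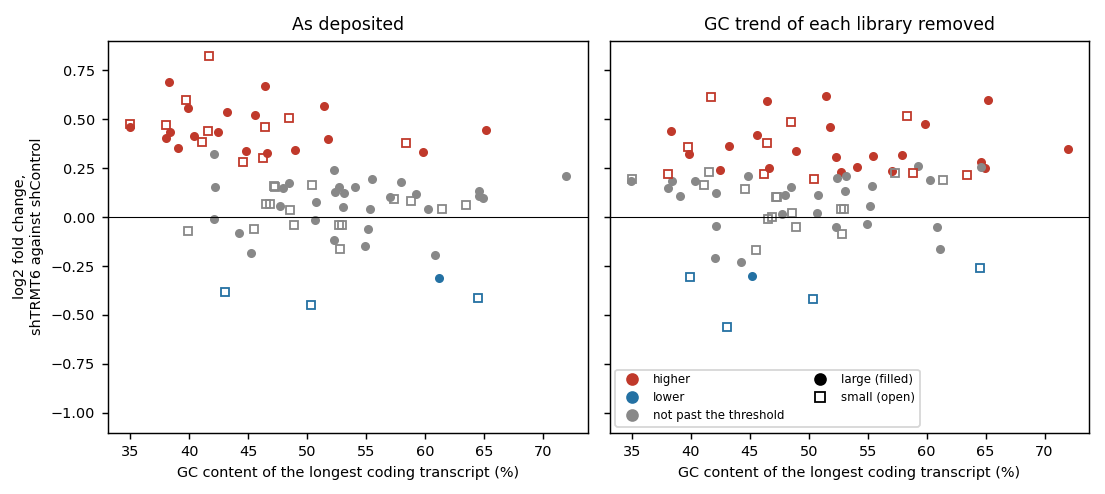
Log2 fold change of each member (y axis) against the GC content of its longest coding transcript (x axis, percent), as deposited (left) and with each library's GC trend removed (right); filled circles are large and open squares small subunit genes, coloured by call. On the left 17 of the 23 members under 45% GC are red, and on the right the red points run from MRPS18C at 38.0% to MRPL41 at 71.9%, with none of the members at 35%.

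Several members share a start region with a gene on the other strand. MRPS11 and MRPL46 are read in opposite directions from start sites 34 bases apart on chromosome 15 (88467453 and 88467419). MRPS11 fell, as described, while MRPL46 read 27.93, 26.76 and 23.25 FPKM in shControl against 27.44, 30.59 and 27.38 FPKM in shTRMT6 with overlapping groups (log2 fold change 0.13, 95% interval -0.10 to 0.36). This pair joins a small and a large subunit gene at nearly equal shControl levels of 25.3 and 26.0 FPKM.

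For other members with a tested neighbour whose start lies within 1000 bases on the other strand, both calls are given. With the 9 such neighbours of members that rose, 6 neighbours rose, 1 fell and 2 did not pass; over all tested genes 19.3% rose and 16.1% fell. 2 of the 6 share the start of MRPL32 and are not separate cases. The 6 were PSMA2, a proteasome subunit, and a gene that overlaps it (ENSG00000256646) beside MRPL32, the complex I subunits NDUFS6 and NDUFB5 beside MRPL36 and MRPL47, MITD1 beside MRPL30 and ZNF189 beside MRPL50. PSMA2 rose from 48.6 ± 6.59 to 75.7 ± 7.13 FPKM (SD, n = 3) and NDUFS6 from 92.6 ± 5.84 to 121.9 ± 3.58 FPKM. NCAPD2, a condensin subunit, fell from 70.4 ± 5.63 to 54.2 ± 1.99 FPKM beside MRPL51, which rose; its exons cover 31.3% of the exonic bases of MRPL51 on the other strand, so part of the reads of this pair cannot be assigned without strand. Of the 14 neighbours of members that did not pass, TCP1 beside MRPL18 rose, EME1, TMEM63B, APBA3, GGA3 and MRPS11 fell, and 8 did not pass. The 2 neighbours of members that fell, MRPL46 and EME2, did not pass. No test of these counts was made, and both genes of a pair share the libraries.

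Genes that act with the mitoribosome were taken from lists by function. Their counts stand beside the 19.3% of all tested genes that rose and the 16.1% that fell. With the replicate block more genes passed in all, 4954 against 3746, so counts with the block stand beside larger shares. Of the 5 mitoribosome proteins with other symbols, PTCD3 rose (17.09, 27.0 and 27.99 FPKM in shControl, 47.95, 42.81 and 26.77 FPKM in shTRMT6; limma adjusted p = 0.021) although its groups overlap, and 4 did not pass; with the replicate block 3 rose. The PTCD3 call ended without shControl replicate 1 (0.0968), shTRMT6 replicate 1 (0.0915) or shTRMT6 replicate 2 (0.0578), without a filter (0.12) and with the GC correction (0.0561). Of 28 genes for ribosome assembly and rRNA maturation 8 rose and 2 fell (median log2 fold change 0.20), or 14 and 3 with the replicate block; 5 rose when shControl replicate 3, shTRMT6 replicate 1 or shTRMT6 replicate 2 was left out. GTPBP10, a GTPase of large subunit assembly, rose from 9.45 ± 1.00 to 18.8 ± 3.94 FPKM (SD, n = 3; log2 fold change 0.91, SE 0.14, limma adjusted p = 0.000513), and NOA1, a GTPase linked to the small subunit, 1.46-fold. MTG1, another GTPase of large subunit maturation, fell from 22.6, 20.12 and 17.85 FPKM in shControl to 7.07, 9.41 and 8.25 FPKM in shTRMT6. At 2.45-fold this exceeded the change of every member (log2 fold change -1.20, SE 0.13, limma adjusted p = 3.94e-05). The other assembly gene that fell was the helicase DHX30 (log2 fold change -0.29, adjusted p = 0.0363), whose call ended in 8 of 17 alternatives, with adjusted p up to 0.125 without shTRMT6 replicate 2; it is named after its value was seen.

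Of 19 mitochondrial translation factors 7 rose and none fell (median log2 fold change 0.24), or 3 without either shTRMT6 replicate 1 or 2. The elongation factor GFM1 rose from 18.2 ± 2.40 to 30.6 ± 2.80 FPKM (SD, n = 3; 1.68-fold, limma adjusted p = 0.000637), the release factor MTRF1L 1.64-fold and the initiation factor MTIF2 1.51-fold. Of 20 mitochondrial aminoacyl-tRNA synthetases and related enzymes 5 rose (25%, near the share over all tested genes) and 1 fell (median 0.10), or 6 and 3 with the replicate block. The median was 0.063 without shTRMT6 replicate 2, 0.061 with the GC correction and 0.069 with median-of-ratios scaling. HARS2, WARS2 and RARS2, for histidine, tryptophan and arginine, rose 1.54-fold, 1.62-fold and 1.46-fold, while VARS2, for valine and named after its value was seen, was even in both groups and fell from 37.1 ± 0.619 to 27.0 ± 1.18 FPKM (limma adjusted p = 0.00297). Of 15 tested genes of mitochondrial transcription and RNA processing 7 rose and none fell (median 0.28), or 4 without shTRMT6 replicate 2. The median was 0.091 without shTRMT6 replicate 3. The gene at the median was PNPT1, a polynucleotide phosphorylase, named after its values were seen, at 22.73, 17.41 and 27.55 FPKM in shControl against 18.78, 20.66 and 50.94 FPKM in shTRMT6, with only shTRMT6 replicate 3 high. The genes that rose included TRMT10C and TFB2M, a subunit of mitochondrial RNase P and the transcription initiation factor, at 1.78-fold and 1.79-fold, and the poly(A) polymerase MTPAP at 1.57-fold.

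The mRNAs that the mitoribosome translates held no called rise. Of these 13 mitochondrially encoded mRNAs none passed the test upwards and MT-ND3 fell, from 2592, 3271.05 and 3758.13 FPKM in shControl to 2284.29, 2258.82 and 2449.59 FPKM in shTRMT6 (limma adjusted p = 0.0134; 0.0522 without shTRMT6 replicate 1). The median log2 fold change was -0.16, and with the GC correction 8 of the 13 fell and none rose (median -0.26). With the replicate block 3 fell, and without shControl replicate 1, 5 fell. As deposited the share that fell was 7.7%, against 16.1% over all tested genes. In all, 4146 genes passed with the GC correction, 4954 with the block and 3618 without shControl replicate 1, against 3746 as deposited. The share of all tested genes that fell in these settings is not given here, so the counts of falls have no such share beside them. Without shTRMT6 replicate 1 none fell, and without shControl replicate 3 the median was -0.088. Among 9 tested regulators of nuclear genes for mitochondrial proteins, GABPA and YY1 rose (22.2%) and NRF1 fell (11.1%). These shares are near those over all tested genes, 19.3% and 16.1%. The other 6, GABPB1 and GABPB2 among them, did not pass. The letters of NRF1, YY1 and ETS factors (GABPA is one) were those searched in the promoters above. NRF1 read 9.03, 8.99 and 8.82 FPKM in shControl against 6.93, 6.55 and 7.05 FPKM in shTRMT6 (limma adjusted p = 0.0227), YY1 rose 1.29-fold (0.0178) and GABPA 1.52-fold (0.025). None of these 3 calls was kept without shTRMT6 replicate 2, when the limma adjusted p was 0.0921, 0.0908 and 0.088. Nor was any kept without shControl replicate 3 (0.0654, 0.053 and 0.0751). Those of NRF1 and GABPA also ended without shTRMT6 replicate 1 (0.0738 and 0.081), and that of NRF1 without shControl replicate 2 (0.0582). The GABPA call ended as well without shControl replicate 1 (0.0722), without a filter (0.0772) and with the GC correction (0.129). For comparison, of the cytosolic ribosomal protein genes 14 of 46 RPL genes (30.4%) and 6 of 31 RPS genes (19.4%) rose and none fell. The RPS share was near the 19.3% over all tested genes. The median log2 fold changes were 0.17 in both.

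**Figure D5:**
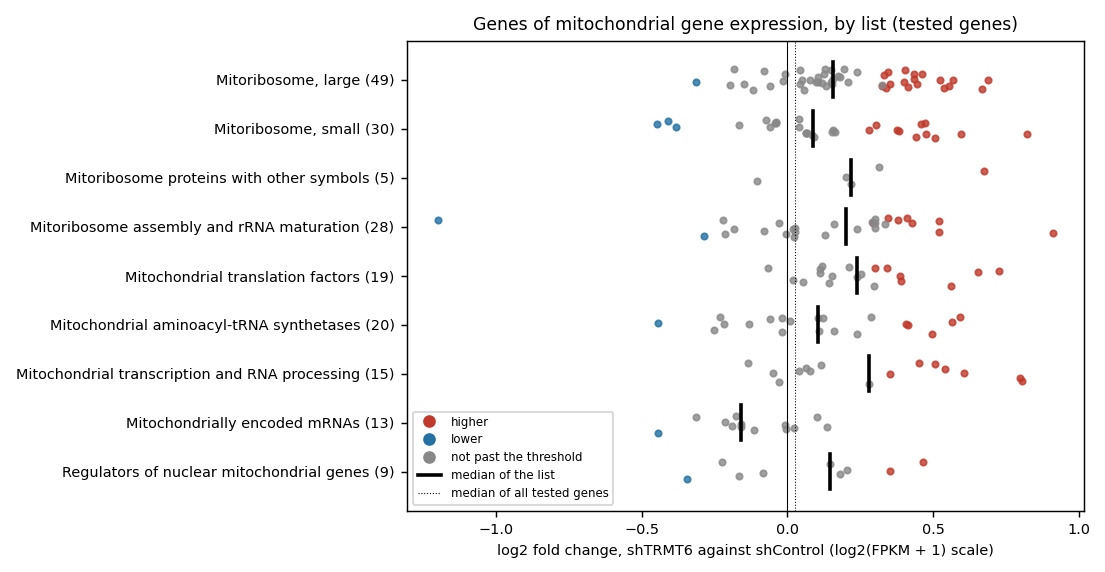
Log2 fold change (x axis) of each tested gene of the 2 subunits and of 7 lists of related genes (rows, with the number tested), coloured by call, with a thick bar at each list's median and a dotted line at the median of all tested genes, 0.024. The large subunit's bar is at 0.16 and the small subunit's at 0.088, the bar of the mitochondrially encoded mRNAs is at -0.16, and MTG1 is the far left point at -1.20.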

How the data were processed

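The deposited table holds 1 FPKM value per gene and library, computed by the authors, per the file headers; counts are not used here. RSEM, HISAT2, StringTie 1.3.1, Bowtie2 2.2.8 and fastp 0.18.0 are listed in the submitters' processing notes, with no role for any. For the build, annotation and strand setting nothing is given in the sources used here. The column names abbreviate the groups (NC, SH), and each was matched to the sample title of its group and number. The log2(FPKM + 1) values were fitted with limma 3.58.1 (R 4.3.3; trended prior, two-sided), without a count model. The pseudocount understates the change of low genes. Symbols came from a gene name table, coordinates and GC content from GENCODE release 29 (GRCh38) and promoters from RefSeq. Named genes were every member past the threshold, with all library values for the 6 highest and lowest per subunit, the 3 most and least abundant per subunit, up to 3 called genes per related list and the MRPS18 paralogues; others are said to be named after their values were seen. Members and lists were chosen with earlier results of these data known. Same-numbered libraries deviated together (correlations across genes 0.206, 0.364 and 0.17; different numbers -0.288 to 0.094), so the replicate block is treated as a pairing found in the data, not one that the labels give. The fit was tested on simulated data. Alternatives were pseudocounts of 0.1 and 0.5, no filter or a mean of at least 5 FPKM, other scalings and priors, the replicate block, removal of each library's GC trend, and each library left out. Depth was estimated and is rough.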

Additional observations from a re-analysis of the deposited data

How the results depend on the processing

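Of the 33 called members, 14 kept their call in all 17 alternatives and 19 lost it in at least 1, 13 of these in an alternative other than leaving out a library; none changed sign with a call. Another 25 members gained a call in at least 1 alternative. In the fit with a replicate block, 22 large and 14 small subunit genes passed against 19 and 14, and the block ended no member's call. The block was taken from these same libraries, so keeping the calls is no independent support. Over all tested genes 4954 passed with the block, 4146 with the GC trend removed and 5267 with both, against 3746 without either. With the GC trend removed, the small subunit median moved from 0.088 to 0.15 and the large minus small difference from 0.06 to 0.095. With the GC trend removed and the replicate block together, 32 large subunit genes passed (28 higher, 4 lower) and 5 small subunit genes fell; the median and the difference were again 0.15 and 0.095. Leaving out 1 library gave 2407 to 3618 genes past the threshold in all (3746 in the full data), 9 to 22 in the large subunit (9 to 21 higher, 0 to 1 lower) and 9 to 14 in the small subunit (6 to 11 higher, 3 lower each time). The large and small medians then ran from 0.12 to 0.24 and from 0.0497 to 0.16, and the difference between the subunits from 0.039 to 0.075. A lone lower call of 1 gene, MRPL23, is what changes in the range from 0 to 1. The counts for member classes, GC ranges, level groups and related lists under these settings were added after the data were seen. The cause of these shifts was not tested. Leaving out a library did not always lower the counts: without shControl replicate 1, 32 members rose against 29. Median-of-ratios scaling moved the median of all genes from 0.024 to -0.010, the large subunit median to 0.12 and the small one to 0.0498; quantile normalization gave 0.17 and 0.12. Depth limits the genes at a few FPKM, whose fold changes the pseudocount also shrinks.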
